A study of Mus musculus with 16 samples.

Results

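Submandibular glands taken 24 h after irradiation were compared directly with glands taken 6 h after it, with no unirradiated control subtracted. The 4 libraries compared, 2 at each time, were chosen by their labelled time after a dose of 5 Gy, from the 10 RNA libraries among the 16 samples of the series. The other 6 RNA libraries came from unirradiated glands, 2 at each of ZT3, ZT9 and ZT15 (zeitgeber time, hours since lights on). They entered the fit only as an estimate of the spread between replicates. The remaining 6 samples were CUT&Tag lists of sites bound by Bmal1, Nr1d1 and Dbp in control mice. All mice were labelled WT and were 6 to 8 weeks old. The labels used here give no strain, no sex and no clock hour of irradiation or collection, so time since irradiation and time of day cannot be told apart. Nothing in the labels says that replicates came from separate animals, so the p-values measure only the spread between these samples. At both times the replicates differed in Y-linked transcripts and Xist, so that spread includes this difference.

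The submandibular gland makes saliva in acinar cells and modifies it in ducts, which in rodents include granular convoluted tubules that store growth factors and kallikreins. Ionising radiation breaks DNA and stabilises the transcription factor p53, which turns on genes that stop the cell cycle or cause cell death and also its own inhibitors. The circadian clock is a loop in which Bmal1 (the product of Arntl) and Clock turn on the Per, Cry and Nr1d genes, whose products then repress them. The series concerns this clock and the loss of salivary secretion after radiotherapy. The direct contrast asks which transcripts differ between an early and a later irradiated gland.

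Expression was deposited as FPKM, which corrects fragment numbers for transcript length and library total. Differences are on the log2(FPKM + 1) scale, 24 h minus 6 h, which understates the change of genes of low abundance. Depth in reads is unknown. The secretoglobin transcript Scgb1b27 took 20.3% and 13.7% of the summed FPKM at 6 h and 8.21% and 12.8% at 24 h. Median-of-ratios scaling, an alternative setting, divides the libraries at 24 h by 1.15 and 1.12 and those at 6 h by 1.02 and 1.03. The unirradiated libraries are divided by 0.931 to 0.987. Comparisons with the unirradiated range below use unscaled FPKM, which places levels at 24 h higher against it. They were not repeated after scaling. The libraries did not separate cleanly by time. Across the 15161 kept genes, which are not independent, the first 6 h library correlated at 0.934 and 0.946 with the libraries at 24 h and at 0.932 with its own replicate. The libraries at 24 h correlated at 0.959 with each other. Replicate 1 at both times held Y-linked transcripts and replicate 2 at both times held Xist. The second 6 h library also stood apart by its lymphocyte, plasma cell and blood transcripts, and results that rest on 1 library are given with and without it.

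Between 6 h and 24 h, 3 of 15161 kept genes passed an adjusted p of 0.05 in limma (0.0198%), 1 higher at 24 h (0.0066%) and 2 lower (0.0132%). The gene that rose was 9530002B09Rik, a protein-coding gene on chromosome 4 (chr4:122689259-122705135, RefSeq GRCm38.p6, also called Vpp1 or Aump). It was at 32.2 and 27.0 FPKM at 6 h and 195 and 197 FPKM at 24 h (log2 difference 2.69, SE 0.260, adjusted p 0.0452). Its replicates were close at both times, and the 6 h libraries already lay above the unirradiated range of 13.0 to 23.8 FPKM. The genes that fell were Gm20305, a RefSeq pseudogene on chromosome 1 (chr1:180854059-180854514), at 49.7 and 52.7 FPKM at 6 h, and Gm27913, which had no entry in the RefSeq table used here, at 55.1 and 64.4 FPKM at 6 h. Both were listed at 0 at 24 h and in all 6 unirradiated libraries, so no fold is given, and a listed 0 can be a failed estimate. They passed the filter only through the libraries at 6 h, where they were high. Values of 0 in every other group add no spread to the fit, so their small p-values rest on that. Both lost their call with a mean of at least 5 FPKM (adjusted p 0.0748) and with the replicate number as a block (0.108). These 3 genes are clone-named or predicted and were singled out after their values were seen. The adjusted p of 9530002B09Rik ranged from 0.0058 to 0.354 over the other settings, and its call was lost under 15 of 21 settings, among them median-of-ratios scaling (0.0528) and leaving out the first 24 h library (0.354). With 2 libraries a group, an exact permutation test of 1 gene cannot go below a two-sided p of 0.333.

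Short of that threshold, differences were common. At an unadjusted p under 0.05 there were 2177 genes higher at 24 h (14.4%) and 763 lower (5.03%), and 1059 genes had an adjusted p under 0.15 while 9 had one under 0.1. The libraries at 24 h did not overlap those at 6 h in 5743 genes that were higher (37.9%) and 3189 that were lower (21.0%). A higher mean at 24 h was found in 8934 genes (58.9%). The median difference of all kept genes was 0.10, and it was -0.02 after median-of-ratios scaling of the libraries. These shares are the background for each gene group below, in which limma called no member. The share of all kept genes outside the unirradiated range was not computed. Counts against that range in the groups below therefore have no background and only describe their members.

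The named gene higher at 24 h with the smallest p was Slc28a3, a concentrative nucleoside transporter, at 0.527 and 0.789 FPKM at 6 h and 6.75 and 5.66 FPKM at 24 h (log2 difference 2.12, SE 0.221, adjusted p 0.0532). Folh1, a carboxypeptidase that releases glutamate from folate and peptides, was at 2.64 and 2.91 FPKM at 6 h and 11.5 and 14.96 FPKM at 24 h (log2 difference 1.90). Apobec3, a cytidine deaminase that restricts retroviruses, was at 38.2 and 48.1 FPKM at 6 h and 114 and 111 FPKM at 24 h (log2 difference 1.38). In all 3 genes both libraries at 24 h were above every unirradiated library, and the gap between the times exceeded the gap between replicates. No overlap between the times was a condition of their choice. For Slc28a3 the second 24 h library, at 5.66 FPKM, was close to the unirradiated maximum of 5.25 FPKM. The other 7 of these genes were Coro6 and Fmn1, which act on actin filaments, Tbce, a tubulin folding cofactor, Mgst1, a microsomal glutathione transferase, Mtx3, a mitochondrial metaxin, and Rgl2 and Psd3, exchange factors for small GTPases. Their log2 differences lay between 0.93 for Rgl2 and 2.23 for Coro6, and none was called.

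The named gene lower at 24 h with the smallest p, clone-named and predicted genes aside, was Agt, which encodes angiotensinogen, the precursor of the angiotensins. It was at 116 and 79.3 FPKM at 6 h and 9.09 and 15.2 FPKM at 24 h (log2 difference -2.92, SE 0.320, adjusted p 0.0532). Mvp, the main protein of vault particles, was at 35.5 and 44.8 FPKM at 6 h and 15.2 and 15.1 FPKM at 24 h (log2 difference -1.34). The autophagy receptor gene Sqstm1 was at 135 and 141 FPKM at 6 h and 73.5 and 71.3 FPKM at 24 h (log2 difference -0.92). At 24 h these 3 genes lay below every unirradiated library, whose lowest and highest values were 40.2 to 155 FPKM for Agt, 15.5 to 16.9 FPKM for Mvp and 80.3 to 94.9 FPKM for Sqstm1. Aldh1l2, a mitochondrial folate dehydrogenase, was at 21.0 and 16.9 FPKM at 6 h and 6.21 and 4.40 FPKM at 24 h (log2 difference -1.67). Tapbp, which encodes tapasin and helps load peptide onto MHC class I molecules, was at 80.8 and 81.1 FPKM at 6 h and 27.2 and 37.3 FPKM at 24 h (log2 difference -1.32). Tapbp and Rgl2 are neighbours on chromosome 17 (chr17:33919478-33929290 and chr17:33929514-33937687, RefSeq GRCm38.p6) that do not overlap, and they differed in opposite directions. The rest of this set was Phgdh and Aldh18a1 of amino acid synthesis, Plk2 and Gtse1 of the p53 response and the salivary proline-rich protein gene Prp2, each described with its group. All 20 genes kept their direction in each of the 416 values computed under other settings, which is no separate check. The genes were chosen for no overlap between the times, so leaving out 1 library cannot change their direction. Many other settings leave the difference itself unchanged.

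**Figure D1:**
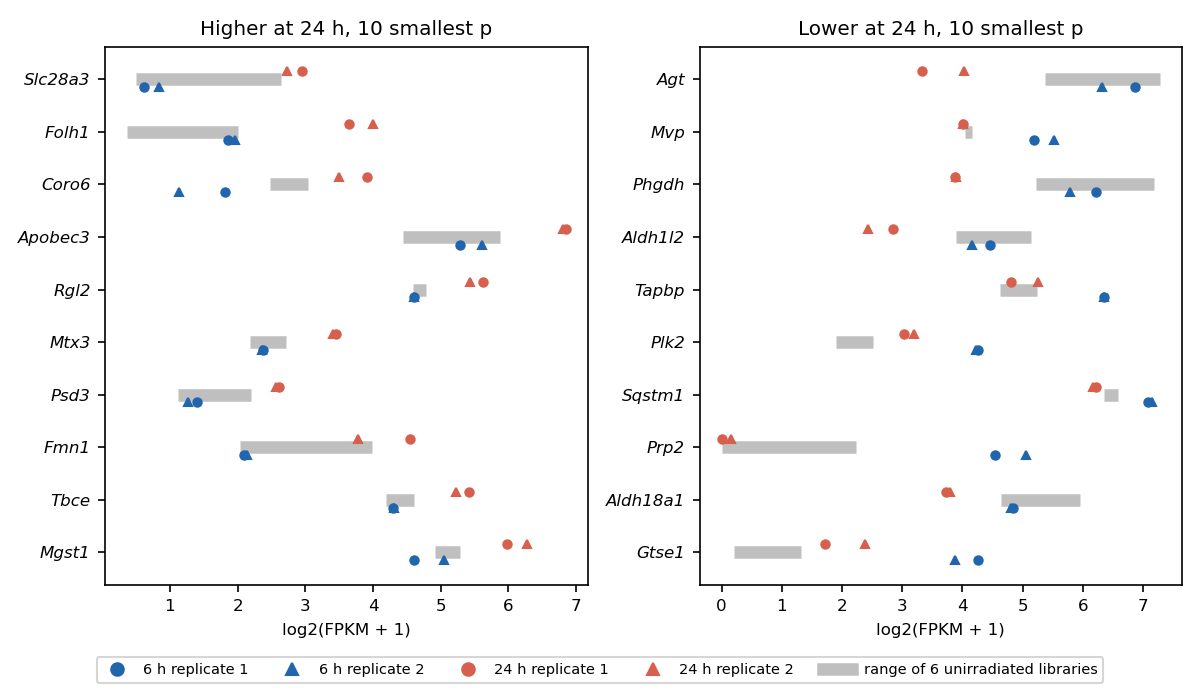
Levels of the 10 named genes with the smallest p in each direction, as log2(FPKM + 1), with circles for replicate 1 and triangles for replicate 2 at 6 h (blue) and 24 h (red) and a grey bar for the range of the 6 unirradiated libraries. Blue and red symbols do not overlap in any of the 20 genes, which was a condition of their choice.

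Over the gene groups, cytosolic ribosomal protein and respiratory chain genes were mostly higher at 24 h, and amino acid supply, cholesterol synthesis, proliferation, interferon and fibroblast genes were mostly lower. List medians ran from -2.24 for parotid and sublingual products to 1.12 for skeletal muscle. The replicate pairs were alike in some lists and far apart in others. The interferon list had a median of -1.54 in the replicate 1 pair and -0.13 in the replicate 2 pair. The 19 ribosomal protein genes of the shorter list had 0.69 and 0.70, with all 19 higher without overlap. In bulk tissue, fewer cells of a type and less RNA per cell cannot be told apart, which applies to every marker list below.

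**Figure D2:**
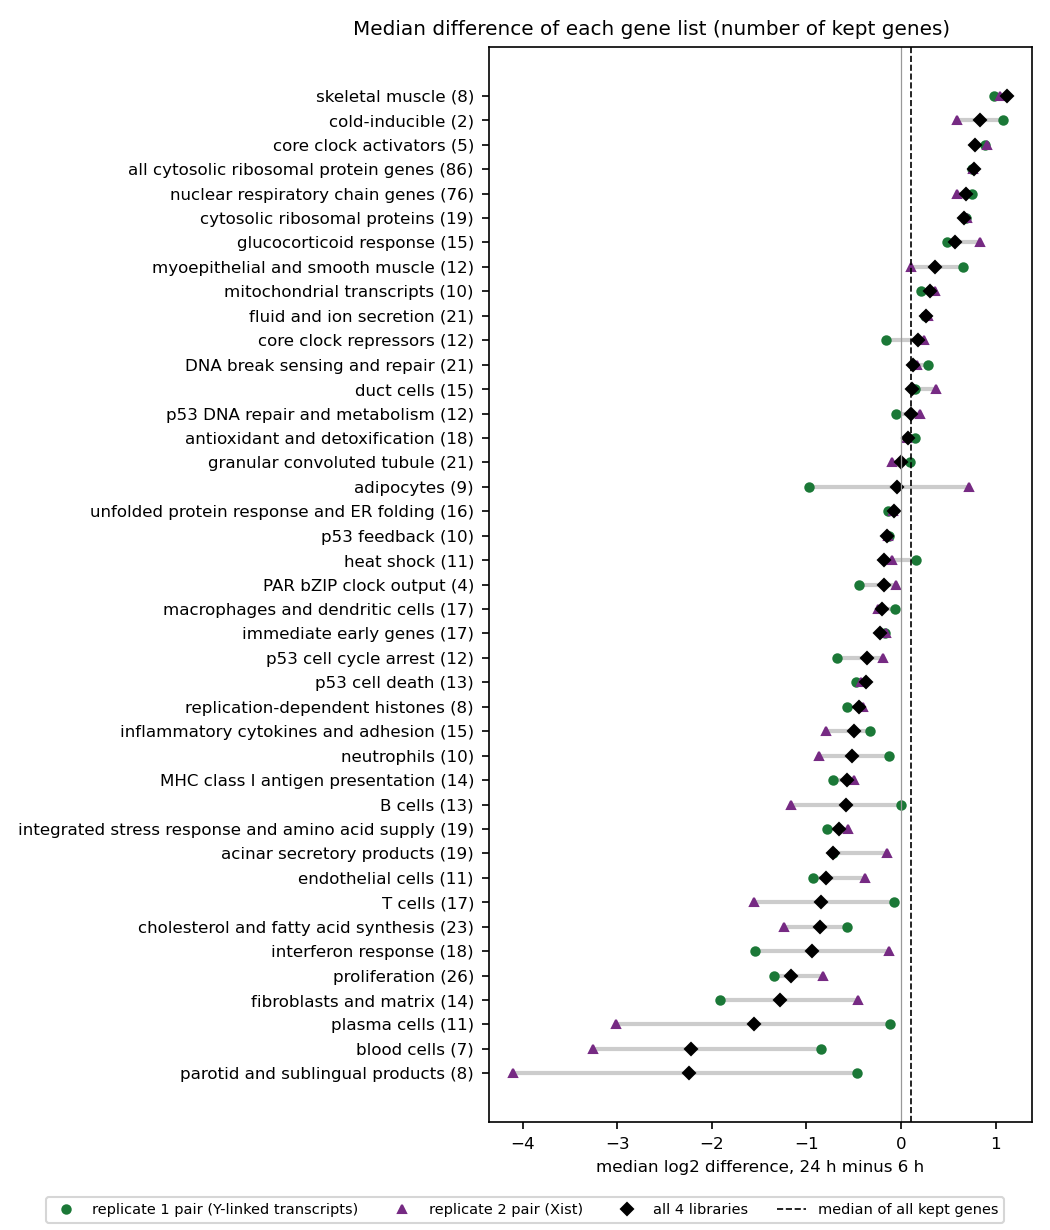
Median log2 difference between 24 h and 6 h of each gene list, with the number of kept genes in brackets, over all 4 libraries (black diamonds) and within the replicate 1 pair (green circles) and replicate 2 pair (purple triangles); the dashed line is the median of all kept genes, 0.10. The plasma cell, blood and parotid lists show wide gaps between the pairs.

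Most p53 targets were above unirradiated glands at both times, and more of them were lower than higher at 24 h. Of 45 kept genes in the 4 p53 lists, 33 lay above every unirradiated library in both libraries at 6 h, 31 did so at 24 h, and 28 did so at both times. Between the times, 30 were lower and 15 higher at 24 h, 21 and 7 of these without overlap, with a median of -0.20. Limma called none, and 11 were lower and 3 higher at an unadjusted p under 0.05. Cdkn1a, the cyclin-dependent kinase inhibitor p21, was at 71.9 and 70.8 FPKM at 6 h and 57.7 and 52.9 FPKM at 24 h (log2 difference -0.36, SE 0.258, adjusted p 0.477). Its unirradiated range was 0.843 to 2.43 FPKM. The antiproliferative gene Btg2 was at 40.5 and 42.2 FPKM at 6 h and 35.7 and 36.0 FPKM at 24 h. Ccng1, which encodes cyclin G1, was at 233 and 205 FPKM at 6 h and 245 and 227 FPKM at 24 h. Mdm2, the ligase that marks p53 for degradation, was at 71.2 and 63.1 FPKM at 6 h and 63.7 and 60.7 FPKM at 24 h. Ccng1 and Mdm2 overlapped between the times, and all 4 genes were above every unirradiated library at 24 h. The cell cycle arrest list had a median of -0.36, cell death -0.37 and feedback -0.15. Without the first 24 h library the arrest median was -0.20, and without the second the feedback median was -0.08. For DNA repair and metabolism it was 0.11, and -0.03 under median-of-ratios scaling.

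The members that differed most went in both directions. Gtse1, which restrains p53 in G2, was at 18.2 and 13.7 FPKM at 6 h and 2.29 and 4.19 FPKM at 24 h (log2 difference -2.02). Plk2, a polo-like kinase, was at 18.2 and 17.8 FPKM at 6 h and 7.16 and 8.19 FPKM at 24 h (log2 difference -1.13). Both remained above their unirradiated ranges at 24 h. Among death genes, Bax, which permeabilises mitochondria, was at 145 and 136 FPKM at 6 h and 104 and 101 FPKM at 24 h. The BH3-only gene Bbc3 (Puma) was at 15.01 and 20.3 FPKM at 6 h and 9.80 and 12.6 FPKM at 24 h. Pmaip1 (Noxa), also BH3-only, was at 1.58 and 3.10 FPKM at 6 h and 0.312 and 0.669 FPKM at 24 h. The death receptor gene Tnfrsf10b was lower without overlap, as were the others, at 10.8 and 9.01 FPKM at 6 h and 3.99 and 4.44 FPKM at 24 h, and only Pmaip1 among these 4 was inside its unirradiated range at 24 h. Rrm2b, a p53-induced ribonucleotide reductase subunit, was at 5.24 and 5.68 FPKM at 6 h and 15.5 and 11.6 FPKM at 24 h (log2 difference 1.16). Sesn1, a stress-induced regulator of growth signalling, was at 16.7 and 18.9 FPKM at 6 h and 29.5 and 25.7 FPKM at 24 h. Both were inside the unirradiated range at 6 h and above it at 24 h, in FPKM not scaled between libraries. In the second 24 h library the margin was small, 25.75 against a maximum of 25.68 FPKM for Sesn1 and 11.6 against 10.9 FPKM for Rrm2b. Mdm4, which encodes another inhibitor of p53, was at 45.6 and 53.8 FPKM at 6 h and 115 and 106 FPKM at 24 h, above every unirradiated library at both times. Trp53 itself was at 19.8 and 23.8 FPKM at 6 h and 11.3 and 14.8 FPKM at 24 h. Levels of the receptor gene Eda2r, the lesion-bypass polymerase gene Polk and the p53 cofactor gene Trp53inp1 overlapped between the times. Tnfrsf10b, Mdm4 and Trp53 were chosen for mention after their values were seen.

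**Figure D3:**
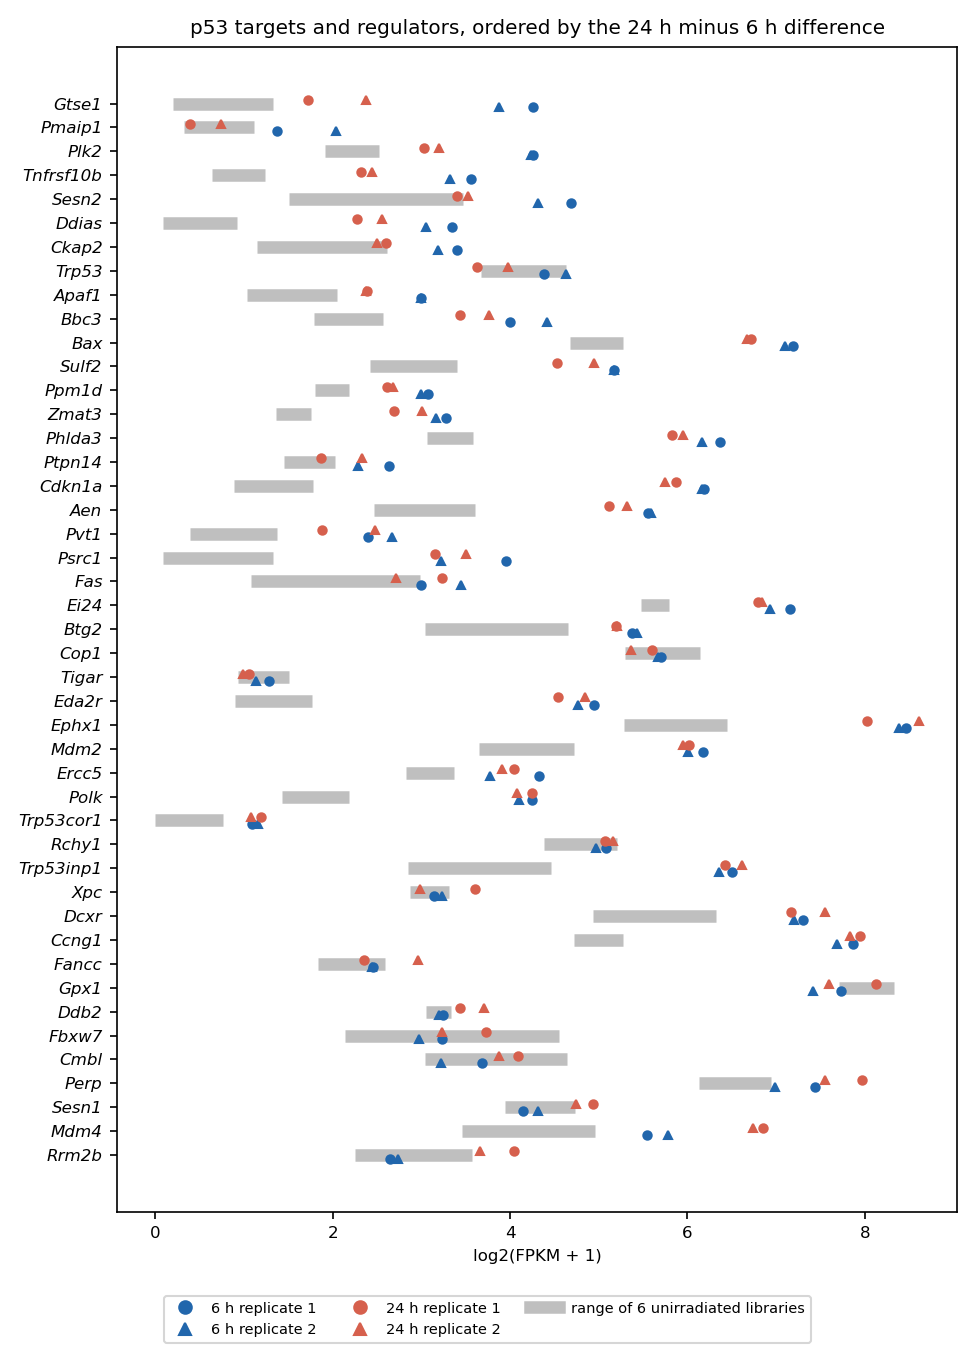
Levels of the 45 kept p53 targets and regulators as log2(FPKM + 1), ordered by the difference between 24 h and 6 h, with circles for replicate 1 and triangles for replicate 2 at 6 h (blue) and 24 h (red) and grey bars for the range of 6 unirradiated libraries. Gtse1 stands at the top and Rrm2b at the bottom, and in 28 genes all 4 symbols lie to the right of the grey bar.

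Genes for making and importing amino acids were lower at 24 h, most of them below every unirradiated gland. The list holds the factor Atf4, which is translated under amino acid shortage and other stress, with genes it is known to turn on. The 19 kept genes had a median difference of -0.65, with 15 lower and 0 higher without overlap. Genes at an unadjusted p under 0.05 numbered 12 lower and 0 higher, and limma called 0. In both libraries at 24 h, 14 of them were below the unirradiated minimum, against 2 at 6 h. Phgdh, the first enzyme of serine synthesis, was at 73.4 and 54.4 FPKM at 6 h and 13.8 and 13.8 FPKM at 24 h (log2 difference -2.12, SE 0.247, adjusted p 0.0614). Its unirradiated range was 36.1 to 145 FPKM. Psat1, the next enzyme, was at 28.2 and 11.4 FPKM at 6 h and 4.09 and 4.17 FPKM at 24 h (log2 difference -1.89). Psph, the last enzyme of that pathway, overlapped between the times at 4.38 and 4.63 FPKM at 6 h and 5.66 and 3.58 FPKM at 24 h. In proline synthesis, Aldh18a1 was at 27.7 and 26.9 FPKM at 6 h and 12.2 and 12.9 FPKM at 24 h. Pycr1, which completes proline, was at 66.6 and 63.3 FPKM at 6 h and 22.7 and 32.2 FPKM at 24 h. Asns, which makes asparagine, was at 164 and 108 FPKM at 6 h and 86.2 and 78.5 FPKM at 24 h. These 3 and Psat1 were below their unirradiated minima at 24 h. Atf4 was at 89.0 and 82.0 FPKM at 6 h and 54.0 and 52.3 FPKM at 24 h and the leucine transporter subunit gene Slc7a5 at 18.2 and 15.04 FPKM at 6 h and 11.8 and 9.41 FPKM at 24 h, also below. The stress-induced Trib3 overlapped, at 2.46 and 1.51 FPKM at 6 h and 1.01 and 1.64 FPKM at 24 h. Psat1, Psph and Pycr1 were named after their values were seen.

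Atf4 and C/EBP proteins bind elements with the core TGATGNAA. On either strand in the 250 bases before the start, it was found in 3 of 17 amino acid genes with a RefSeq promoter (Asns, Chac1 and Pycr1) and in 3.45% of all 32851 promoter windows. A gene with several windows counts if any holds the core, so the gene count and the window share differ in unit. The core was chosen after the values were seen. The 150 bases before the start of Asns (chr6:7693210-7693359, minus strand) and Pycr1 (chr11:120643749-120643898, minus strand) are shown because both genes carry it and were lower at 24 h without overlap. They are from RefSeq GRCm38.p6, in the direction of the gene, with the core or its reverse complement in capitals:
Asns: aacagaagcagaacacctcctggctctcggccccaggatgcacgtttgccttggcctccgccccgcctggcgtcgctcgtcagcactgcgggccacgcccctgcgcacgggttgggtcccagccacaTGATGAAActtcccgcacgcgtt
Pycr1: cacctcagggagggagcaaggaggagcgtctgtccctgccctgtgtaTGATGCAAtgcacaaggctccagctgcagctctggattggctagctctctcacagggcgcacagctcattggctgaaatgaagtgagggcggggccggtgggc
A match describes these letters and is not a bound site.

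Transcripts of the cytosolic ribosome were higher at 24 h almost throughout. Of 86 kept ribosomal protein genes, 85 were higher, 81 of them without overlap, with a median of 0.77. In both libraries at 24 h, 70 exceeded every unirradiated library, against 3 at 6 h, in FPKM not scaled between libraries. None was called by limma, and 68 were higher at an unadjusted p under 0.05. Rpl3, of the large subunit, was at 509 and 590.1 FPKM at 6 h and 760.3 and 823 FPKM at 24 h. Rpl32, also of the large subunit, was at 999 and 1012 FPKM at 6 h and 1626 and 1642 FPKM at 24 h. Rps3, of the small subunit, was at 489 and 459 FPKM at 6 h and 771 and 737 FPKM at 24 h. All 3 were above every unirradiated library at 24 h. Rps27l, a paralog that p53 is known to induce, was above them at 6 h too, at 745 and 688 FPKM at 6 h and 992 and 1022 FPKM at 24 h. The exception in direction was Rps4l, at 5.35 and 5.29 FPKM at 6 h and 4.44 and 3.42 FPKM at 24 h. The median was 0.62 under median-of-ratios scaling and 0.46 under quantile normalization. The whole-family set was assembled by symbol after the values were seen, Rps4l was named then, and related copies and pseudogenes can share reads.

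Nuclear genes of the respiratory chain and ATP synthase were mostly higher too. Without overlap, 2 of 76 kept genes were lower and 65 higher, and the median difference was 0.69. The median was 0.54 under median-of-ratios scaling and 0.51 under quantile normalization. There were 0 calls by limma, and 2 lower and 47 higher genes at an unadjusted p under 0.05. At 6 h, 12 were below every unirradiated library in both libraries, and at 24 h 17 were above every one. Ndufa12, an accessory subunit of complex I, was at 26.5 and 18.0 FPKM at 6 h and 119.6 and 104 FPKM at 24 h (log2 difference 2.30). Uqcrh, of complex III, was at 238 and 208 FPKM at 6 h and 537 and 422 FPKM at 24 h (log2 difference 1.09). Both went from below the unirradiated range at 6 h to above it at 24 h. The 2 genes lower without overlap were tissue-restricted isoforms, Cox6b2 at 7.80 and 7.72 FPKM at 6 h and 2.48 and 3.75 FPKM at 24 h and Cox4i2 at 1.04 and 2.89 FPKM at 6 h and 0.365 and 0.331 FPKM at 24 h. This set and its named genes were also chosen after the values were seen. Among transcripts encoded by mitochondrial DNA the direction was the same. Over 10 kept genes the median difference was 0.30, and 0 were lower and 9 higher without overlap. This median was 0.15 under median-of-ratios scaling and 0.17 under quantile normalization. None was called by limma, with 0 lower and 0 higher at an unadjusted p under 0.05. The cytochrome oxidase gene mt-Co1 was at 8563 and 7737 FPKM at 6 h and 9378 and 10755 FPKM at 24 h.

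**Figure D4:**
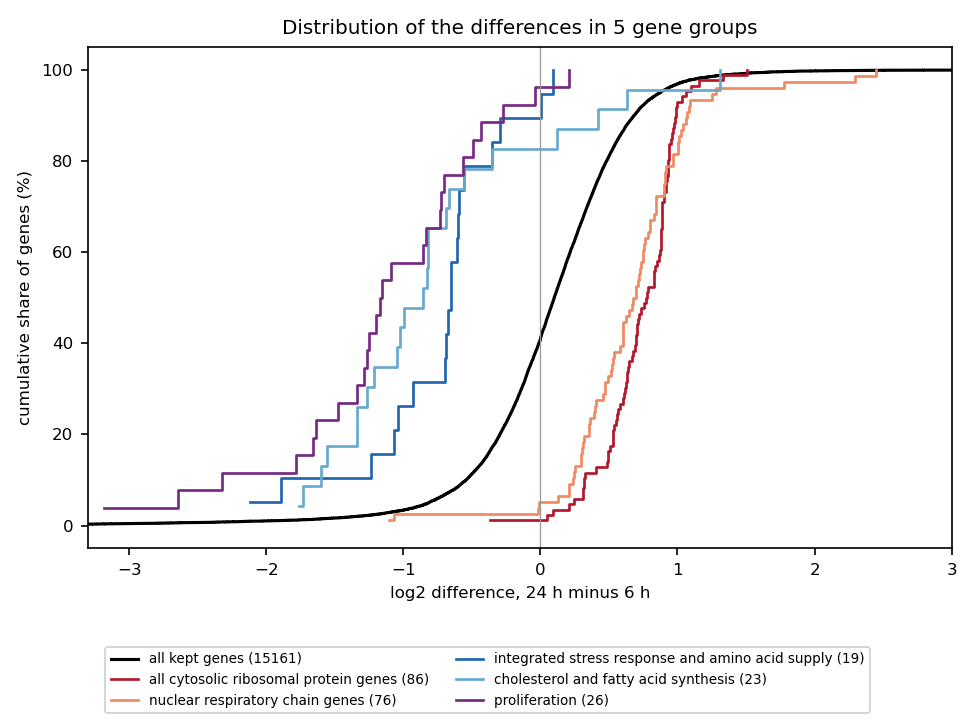
Cumulative share of genes (vertical axis, %) by log2 difference between 24 h and 6 h (horizontal axis) for all kept genes (black) and 5 groups; the axis leaves out the extreme tails. Ribosomal protein and respiratory chain genes lie to the right of all kept genes, with medians of 0.77 and 0.69, and the amino acid, cholesterol and proliferation genes to the left, with medians of -0.65, -0.86 and -1.16.

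Interferon-stimulated genes, which encode antiviral and signalling proteins, were all lower at 24 h by the mean. Among 18 kept genes, 13 were lower and 0 higher with no overlap between the times, and the median difference was -0.95. The limma calls numbered 0, and an unadjusted p under 0.05 was reached by 5 lower and 0 higher genes. The core of the element bound by their activating complex is a pair of GAAA copies with any 2 bases between them. On either strand in the 250 bases before the start, it was found in 9 of 15 members with a RefSeq promoter (Bst2, Gbp2, Gbp3, Ifit1, Ifit3, Isg15, Oas1a, Rsad2 and Stat2) and in 2.98% of all 32851 windows. Members are again counted by gene and the background by window. The core was chosen after the values were seen, and copies can overlap. The 150 bases before the start of 4 of these genes are shown because all 4 carry the core there and were lower at 24 h without overlap. They are Isg15 (chr4:156200819-156200968, minus strand), Ifit1 (chr19:34640739-34640888, plus strand), Oas1a (chr5:120907526-120907675, minus strand) and Gbp2 (chr3:142620513-142620662, plus strand). The sequences are from RefSeq GRCm38.p6, in the direction of the gene, with the core or its reverse complement in capitals:
Isg15: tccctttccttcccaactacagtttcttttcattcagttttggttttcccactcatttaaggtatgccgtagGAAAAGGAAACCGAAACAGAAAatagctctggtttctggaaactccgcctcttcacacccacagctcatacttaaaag
Ifit1: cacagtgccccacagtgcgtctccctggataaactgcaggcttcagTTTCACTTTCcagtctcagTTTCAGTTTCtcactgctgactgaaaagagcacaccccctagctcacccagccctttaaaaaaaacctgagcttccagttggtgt
Oas1a: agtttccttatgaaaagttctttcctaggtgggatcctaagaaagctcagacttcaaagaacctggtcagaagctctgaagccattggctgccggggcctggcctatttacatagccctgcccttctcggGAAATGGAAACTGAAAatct
Gbp2: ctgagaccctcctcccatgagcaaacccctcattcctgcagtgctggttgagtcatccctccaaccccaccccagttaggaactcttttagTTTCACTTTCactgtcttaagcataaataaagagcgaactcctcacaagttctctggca
Isg15 held 3 copies, Ifit1 and Oas1a 2 each and Gbp2 1, and no match is shown to be bound in these glands.

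The first 6 h library held the highest level of several of these genes. Isg15, a ubiquitin-like modifier, was at 44.7 and 24.8 FPKM at 6 h and 8.21 and 15.9 FPKM at 24 h (log2 difference -1.46, SE 0.553, adjusted p 0.213). Ifit1, which binds foreign RNA caps, was at 13.5 and 7.55 FPKM at 6 h and 4.49 and 7.28 FPKM at 24 h. The transcription factor gene Irf7 was at 51.4 and 22.1 FPKM at 6 h and 18.1 and 31.5 FPKM at 24 h. In all 3 genes the first 6 h library was the highest of the 4 and the libraries at 24 h were inside the unirradiated range, and Irf7 overlapped between the times. Oas1a, which makes the activator of RNase L, was at 6.71 and 6.06 FPKM at 6 h and 1.99 and 3.62 FPKM at 24 h. The guanylate-binding protein gene Gbp2 was at 17.9 and 28.3 FPKM at 6 h and 5.07 and 15.4 FPKM at 24 h. Leaving out 1 irradiated library moved the median at most to -1.32, without the second 24 h library, and -0.46, without the first 24 h library. Without the first 6 h library it was -0.59. Oas1a and Gbp2 were named after their values were seen.

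Genes of MHC class I antigen presentation included both lower and overlapping members. Tap1, which encodes part of the peptide transporter, was at 54.4 and 51.8 FPKM at 6 h and 18.5 and 29.8 FPKM at 24 h. Tap2, its partner, was at 46.4 and 47.8 FPKM at 6 h and 14.2 and 19.1 FPKM at 24 h (log2 difference -1.46). Tapbpl, a relative of tapasin, was at 40.6 and 40.8 FPKM at 6 h and 11.3 and 18.3 FPKM at 24 h (log2 difference -1.43). These were lower at 24 h without overlap and above every unirradiated library at 6 h. B2m, the light chain of class I molecules, was at 888 and 908 FPKM at 6 h and 1677 and 879 FPKM at 24 h. The heavy chain gene H2-K1 was at 855 and 927 FPKM at 6 h and 1114 and 821 FPKM at 24 h. Both overlapped between the times and were above every unirradiated library in all 4 libraries. Of 14 kept genes, 10 were lower and 0 higher without overlap, and the median difference was -0.57. An unadjusted p under 0.05 was found for 4 lower and 0 higher genes, with 0 called by limma. The list and its named genes were chosen after Tapbp had been seen among the smallest p-values, so the counts only describe these genes.

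Among inflammatory genes, Icam1, an adhesion molecule for leukocytes, was at 21.5 and 38.6 FPKM at 6 h and 4.44 and 6.88 FPKM at 24 h (log2 difference -2.19, SE 0.470, adjusted p 0.120). Relb, a subunit of NF-kB, was at 17.7 and 27.6 FPKM at 6 h and 3.95 and 5.96 FPKM at 24 h (log2 difference -1.98). Cxcl10, a chemokine for T cells, was at 8.08 and 11.98 FPKM at 6 h and 1.41 and 3.33 FPKM at 24 h (log2 difference -1.75). In these 3 genes both libraries at 6 h were above the unirradiated maxima and both at 24 h were within the range. The cytokine gene Il1b was at 0.445 and 3.71 FPKM at 6 h and 1.42 and 0.499 FPKM at 24 h. Tnf was at 0.590 and 1.62 FPKM at 6 h and 0.719 and 0.977 FPKM at 24 h. Ccl2, a chemokine for monocytes, was at 1.62 and 6.67 FPKM at 6 h and 3.10 and 4.91 FPKM at 24 h. These 3 overlapped between the times, and the second 6 h library was the highest of the 4. The 15 kept genes had a median difference of -0.50, with 6 lower and 0 higher without overlap. With limma, 0 were called and 5 lower and 0 higher genes had an unadjusted p under 0.05. With 1 irradiated library left out, the median lay between -0.997 (without the first 6 h library) and 0.03 (without the second 6 h library). Relb and Cxcl10 were named after their values were seen.

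The positive arm of the clock was higher at 24 h than at 6 h. Without overlap, 0 of 5 kept genes were lower and 5 higher, and the median difference was 0.78. Calls by limma were 0, against 0 lower and 4 higher genes at an unadjusted p under 0.05. Arntl was at 0.861 and 1.05 FPKM at 6 h and 5.31 and 3.17 FPKM at 24 h (log2 difference 1.39, SE 0.292, adjusted p 0.120). Unirradiated glands held 9.41 and 15.6 FPKM of Arntl at ZT3, 0.803 and 0.855 FPKM at ZT9 and 3.44 and 2.59 FPKM at ZT15. For Arntl the 6 h levels were thus nearest those at ZT9, and the 24 h levels nearest those at ZT15. By group means, clock genes did not share a placement at 24 h. By the mean, Clock (8.68 FPKM) was nearest ZT3 (8.06 FPKM), as was Nr1d1 (29.6 against 20.0 FPKM). Per1 (36.2 FPKM) was nearest ZT9 (22.9 FPKM) and Per2 (9.52 FPKM) nearest ZT15 (11.5 FPKM). Single libraries at 24 h could place otherwise than the mean. For Clock the second, at 6.73 FPKM, was nearest ZT15 (mean 5.55 FPKM). For Per2 the first, at 6.65 FPKM, was nearest ZT9 (mean 6.80 FPKM). For Nr1d1 and Per1 both libraries were nearest the same time as the mean. Both ZT3 libraries held Y-linked transcripts and both ZT9 libraries held Xist, so zeitgeber time is not separate from that difference. Clock was at 2.93 and 3.14 FPKM at 6 h and 10.6 and 6.73 FPKM at 24 h (log2 difference 1.23). Npas2, which can stand in for Clock, was at 0.791 and 0.991 FPKM at 6 h and 1.82 and 2.73 FPKM at 24 h. Rora, which encodes a nuclear receptor that activates Arntl, was at 3.60 and 4.53 FPKM at 6 h and 5.53 and 8.92 FPKM at 24 h, above every unirradiated library at 24 h. Rora was named after its values were seen.

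The negative arm showed no common direction, and the 2 libraries at 24 h differed on it. Over 12 kept genes the median difference was 0.18, and 1 was lower and 2 higher without overlap. Limma called 0, while 0 were lower and 0 higher at an unadjusted p under 0.05. Without the second 24 h library the median was -0.22 and without the first 24 h library 0.30, the lowest and highest of the 4 omissions. Per1 was at 26.0 and 25.9 FPKM at 6 h and 22.7 and 49.8 FPKM at 24 h. Per2 was at 5.96 and 6.81 FPKM at 6 h and 6.65 and 12.4 FPKM at 24 h. Nr1d1, which represses Arntl, was at 38.4 and 35.0 FPKM at 6 h and 20.9 and 38.3 FPKM at 24 h. In each the second 24 h library was the higher one at that time, and the groups overlapped. Ciart, a repressor of the Clock and Bmal1 dimer, was at 4.68 and 7.13 FPKM at 6 h and 1.58 and 7.19 FPKM at 24 h. Dbp, a PAR bZIP factor gene and direct output of the clock, was at 86.8 and 95.0 FPKM at 6 h and 22.1 and 76.3 FPKM at 24 h (log2 difference -1.12, SE 0.680, adjusted p 0.405). For Ciart and Dbp the gap within 24 h exceeded the gap between the means of the times. Of the related genes, Tef was at 94.0 and 94.4 FPKM at 6 h and 72.7 and 129.7 FPKM at 24 h and Hlf at 1.44 and 1.33 FPKM at 6 h and 0.696 and 1.301 FPKM at 24 h. Nfil3, which opposes these factors, was at 4.79 and 3.92 FPKM at 6 h and 4.38 and 3.64 FPKM at 24 h. Among 4 kept genes, 2 were lower and 0 higher with no overlap between the times, and the median difference was -0.18. Genes at an unadjusted p under 0.05 numbered 0 lower and 0 higher, and limma called 0. The median was -0.43 without the second 24 h library and -0.11 without the first 6 h library, the extremes of leaving out 1 irradiated library.

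**Figure D5:**
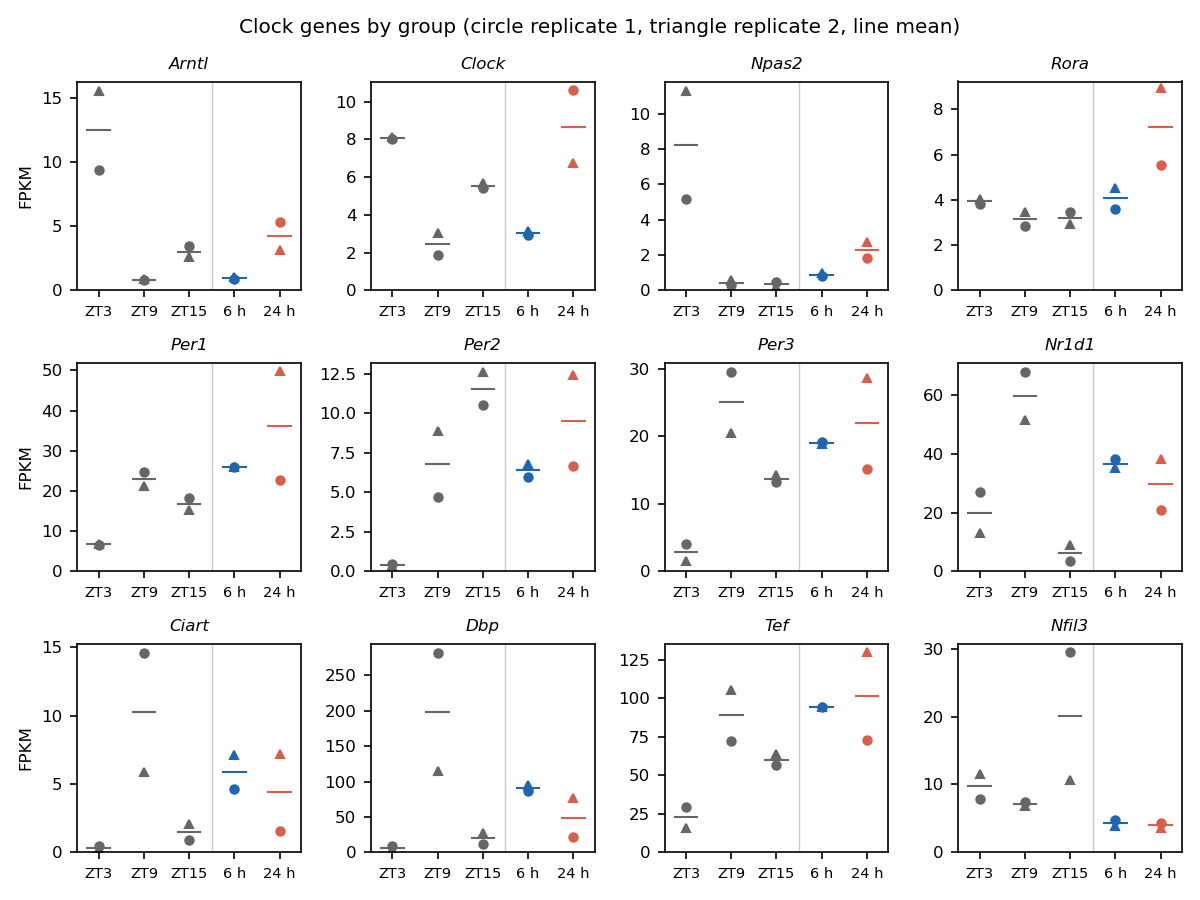
FPKM of 12 clock genes (vertical axes, each from 0) in unirradiated glands at ZT3, ZT9 and ZT15 (grey) and 6 h (blue) and 24 h (red) after irradiation, with circles for replicate 1, triangles for replicate 2 and lines for the means. Arntl, Clock and Npas2 are higher at 24 h than at 6 h without overlap, while Per1, Nr1d1, Ciart and Dbp show a wide gap between the 2 libraries at 24 h.

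The CUT&Tag lists from control mice placed summits of the clock factors at several of these promoters. In the 250 bases before the start, Bmal1 had a summit in both of its lists at Arntl, Tef and 5 of 9 repressors with a RefSeq promoter (Ciart, Cry2, Nr1d2, Per1 and Per3), against 4.25% of all promoter windows. A gene can have several windows and is named if any of them holds a summit or motif. Counted by window, the Bmal1 share was 14.3% for activators, 38.5% for repressors and 20.0% for PAR bZIP genes. Nr1d1 had one in both lists at Arntl, Tef, Ciart, Nr1d1, Nr1d2 and Per1 (2.11% of all windows). Dbp had one at Bhlhe41, Cry2, Nr1d2, Per1 and Per3 (4.78%). Such summits were not confined to clock genes. By window, the amino acid list held 15.8% for Bmal1, 10.5% for Nr1d1 and 26.3% for Dbp. The interferon list held 5.56% for Bmal1, 0.0% for Nr1d1 and 0.0% for Dbp. The E-box CACGTG, which Bmal1 and Clock bind, was in the windows of Bhlhe41, Ciart, Cry1, Per1 and Tef and in none of the 4 activators with a promoter (6.02% of all windows, either strand). TTANGTAA, a core bound by PAR bZIP factors, was found among these clock genes in Per3 alone (2.06% of all windows). Of the 7 clock genes with a Bmal1 summit in both lists, Arntl was higher at 24 h without overlap, and Ciart, Cry2, Nr1d2, Per1, Per3 and Tef overlapped.

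Genes that respond to glucocorticoids were more often higher than lower at 24 h. The same held for all kept genes, of which 37.9% were higher and 21.0% lower without overlap. Of 15 kept genes, 2 were lower and 7 higher without overlap, and the median difference was 0.56. There were 0 calls by limma, and 0 lower and 5 higher genes at an unadjusted p under 0.05. Fkbp5, a co-chaperone that damps the glucocorticoid receptor, was at 17.5 and 15.9 FPKM at 6 h and 99.2 and 51.8 FPKM at 24 h (log2 difference 2.04, SE 0.316, adjusted p 0.104). Zbtb16, a zinc finger repressor, was at 3.87 and 2.64 FPKM at 6 h and 8.07 and 11.1 FPKM at 24 h (log2 difference 1.31). The metallothionein gene Mt2 was at 146 and 135 FPKM at 6 h and 357 and 249 FPKM at 24 h. All 3 were above every unirradiated library at 24 h. Tsc22d3 (GILZ) overlapped at 17.5 and 20.4 FPKM at 6 h and 18.4 and 30.3 FPKM at 24 h. The kinase gene Sgk1, at 44.8 and 42.1 FPKM at 6 h and 99.4 and 42.0 FPKM at 24 h, was high in the first 24 h library alone. Cirbp and Rbm3, RNA-binding protein genes whose transcripts rise in the cold, formed a list of their own. The 2 kept genes had a median difference of 0.83, with 0 lower and 2 higher without overlap. None was called by limma, with 0 lower and 2 higher at an unadjusted p under 0.05. Cirbp was at 59.1 and 85.2 FPKM at 6 h and 129 and 137 FPKM at 24 h and Rbm3 at 100.1 and 127 FPKM at 6 h and 205 and 180.2 FPKM at 24 h, both above every unirradiated library at 24 h.

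Genes of cholesterol and fatty acid synthesis were mostly lower at 24 h. Without overlap, 16 of 23 kept genes were lower and 1 higher, and the median difference was -0.86. The limma calls numbered 0, and an unadjusted p under 0.05 was reached by 13 lower and 1 higher genes. Sqle, which makes squalene epoxide, was at 9.57 and 26.7 FPKM at 6 h and 3.41 and 4.77 FPKM at 24 h (log2 difference -1.76, SE 0.653, adjusted p 0.207). Hmgcs1, an early enzyme of the mevalonate route, was at 24.8 and 48.7 FPKM at 6 h and 17.1 and 15.6 FPKM at 24 h (log2 difference -1.05). In both the second 6 h library was the highest of the 4 and lay above the unirradiated maximum, and the libraries at 24 h were inside the unirradiated range. The gene higher without overlap was Srebf1, which drives fatty acid synthesis, at 28.9 and 33.4 FPKM at 6 h and 74.3 and 82.8 FPKM at 24 h (log2 difference 1.31). Srebf2, which drives cholesterol synthesis, was at 27.4 and 35.3 FPKM at 6 h and 18.2 and 20.3 FPKM at 24 h. Leaving out 1 irradiated library moved the median at most to -1.49, without the first 6 h library, and -0.49, without the second 6 h library. Srebf1 and Srebf2 were named after their values were seen.

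Proliferation genes were lower at 24 h in 25 of 26 kept members. Over 26 kept genes the median difference was -1.16, and 22 were lower and 1 higher without overlap. An unadjusted p under 0.05 was found for 9 lower and 0 higher genes, with 0 called by limma. In both libraries at 24 h, 13 were below every unirradiated library, against 0 at 6 h. Cdk1, the mitotic kinase, was at 12.1 and 7.42 FPKM at 6 h and 0.159 and 0.157 FPKM at 24 h (log2 difference -3.18, SE 0.850, adjusted p 0.140). Top2a, the topoisomerase of dividing cells, was at 8.37 and 3.78 FPKM at 6 h and 0.0350 and 0.108 FPKM at 24 h. Mki67, the Ki-67 antigen gene, was at 2.84 and 1.77 FPKM at 6 h and 0.0828 and 0.0161 FPKM at 24 h. These 3 went from inside the unirradiated range at 6 h to below it at 24 h. The replication helicase gene Mcm2 was at 6.23 and 6.34 FPKM at 6 h and 4.09 and 3.79 FPKM at 24 h. Pcna, which is also used in repair, was the member higher without overlap, at 35.6 and 35.2 FPKM at 6 h and 41.4 and 40.7 FPKM at 24 h. The median was -2.55 with 0.1 in place of 1 added before the log, and -0.56 over genes with a mean of at least 5 FPKM.

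Genes that sense and repair DNA breaks had shares near those of all kept genes in each direction. Among 21 kept genes, 5 were lower and 9 higher with no overlap between the times, and the median difference was 0.12. With limma, 0 were called and 2 lower and 5 higher genes had an unadjusted p under 0.05. The median was 0.03 under median-of-ratios scaling. With 1 irradiated library left out, the median lay between 0.13 (without the second 24 h library) and 0.27 (without the second 6 h library). In end joining, Xrcc5 (Ku80) was at 6.44 and 7.58 FPKM at 6 h and 12.3 and 11.8 FPKM at 24 h. Its partner Xrcc6 (Ku70) was at 11.4 and 11.6 FPKM at 6 h and 18.9 and 15.9 FPKM at 24 h. The DNA-dependent kinase gene Prkdc was at 1.74 and 1.45 FPKM at 6 h and 3.47 and 2.73 FPKM at 24 h. These and Nbn, of the complex that binds broken ends, at 11.5 and 11.6 FPKM at 6 h and 19.4 and 17.1 FPKM at 24 h, were higher at 24 h without overlap. The histone variant gene H2ax was at 5.21 and 4.09 FPKM at 6 h and 1.33 and 1.25 FPKM at 24 h. Parp1, which senses breaks, was at 23.6 and 23.8 FPKM at 6 h and 17.8 and 17.0 FPKM at 24 h. H2ax and Parp1 were lower without overlap. Xrcc5, Xrcc6, Prkdc and Nbn were named after their values were seen.

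Fibroblast and matrix genes were lower at 24 h. Of 14 kept genes, 11 were lower and 1 higher without overlap, and the median difference was -1.28. Calls by limma were 0, against 7 lower and 0 higher genes at an unadjusted p under 0.05. Without the second 6 h library the median was -1.83 and without the first 6 h library -0.74, the lowest and highest of the 4 omissions. Their summed level was 952 and 399.6 FPKM at 6 h and 331 and 342 FPKM at 24 h. Col3a1, a fibrillar collagen, was at 197 and 19.6 FPKM at 6 h and 4.21 and 11.7 FPKM at 24 h (log2 difference -2.98, SE 1.08, adjusted p 0.201). Col1a1, another, was at 43.0 and 7.53 FPKM at 6 h and 2.19 and 4.89 FPKM at 24 h. Fn1, which encodes fibronectin, was at 9.19 and 8.16 FPKM at 6 h and 2.24 and 2.20 FPKM at 24 h. All 3 were below every unirradiated library at 24 h, and the first 6 h library was far above the second for both collagens. The receptor gene Pdgfra overlapped, at 11.7 and 7.90 FPKM at 6 h and 6.12 and 8.74 FPKM at 24 h. Endothelial genes were mostly lower as well. The 11 kept genes had a median difference of -0.79, with 8 lower and 1 higher without overlap. Limma called 0, while 4 were lower and 0 higher at an unadjusted p under 0.05. The median was -0.94 without the second 24 h library and -0.46 without the first 24 h library, the extremes of leaving out 1 irradiated library. The junction gene Pecam1 was at 15.4 and 17.1 FPKM at 6 h and 3.99 and 7.28 FPKM at 24 h. Cdh5, an endothelial cadherin, was at 5.71 and 5.95 FPKM at 6 h and 1.12 and 2.32 FPKM at 24 h. Vwf, the clotting factor stored in endothelium, was the member higher without overlap, at 12.9 and 16.2 FPKM at 6 h and 24.3 and 18.1 FPKM at 24 h.

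Acinar secretory transcripts were lower at 24 h by the mean in all 19 kept genes, but Prol1 only through a listed 0 in 1 library. Among them, Amy1, Bpifa2, Muc19 and Dcpp1 are also members of the parotid and sublingual list below. Without overlap, 9 of 19 kept genes were lower and 0 higher, and the median difference was -0.72. Genes at an unadjusted p under 0.05 numbered 2 lower and 0 higher, and limma called 0. Leaving out 1 irradiated library moved the median at most to -0.90, without the second 6 h library, and -0.32, without the first 24 h library. Scgb1b27 was at 207500.0 and 121130.0 FPKM at 6 h and 65041 and 109020.0 FPKM at 24 h. Pip, the prolactin-induced protein gene, overlapped at 73570.0 and 43818 FPKM at 6 h and 44556 and 62768 FPKM at 24 h. The mucin gene Muc19 was at 1014 and 1324 FPKM at 6 h and 800.1 and 515 FPKM at 24 h. Unirradiated libraries ranged from 0.274 to 2863 FPKM for Muc19. Prol1, a proline-rich saliva protein gene, was at 31229 and 22708 FPKM at 6 h, was listed at 0 in the first 24 h library and was at 50123 FPKM in the second. That 0 can be a failed estimate, and without it the direction of Prol1 is not known. Lpo, the lactoperoxidase of saliva, was at 455 and 348 FPKM at 6 h and 170.3 and 323 FPKM at 24 h. Tcn2, a vitamin B12 carrier, was at 320.3 and 247 FPKM at 6 h and 161 and 161 FPKM at 24 h. Lpo and Tcn2 were the members at an unadjusted p under 0.05 and were named for it after their values were seen. The summed level was 564600.0 and 434800.0 FPKM at 6 h and 244800.0 and 382500.0 FPKM at 24 h. It was lowest in the first 24 h library, whose sum includes the listed 0 of Prol1.

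Genes of fluid and ion secretion had shares in each direction near those of all kept genes. Over 21 kept genes the median difference was 0.27, and 4 were lower and 7 higher without overlap. There were 0 calls by limma, and 1 lower and 3 higher genes at an unadjusted p under 0.05. The median was 0.12 under median-of-ratios scaling. With 1 irradiated library left out, the median lay between 0.09 (without the first 6 h library) and 0.42 (without the second 6 h library). Aqp5, the water channel of the acinar membrane, was at 258 and 248 FPKM at 6 h and 134 and 198 FPKM at 24 h (log2 difference -0.63, SE 0.354, adjusted p 0.369). Slc12a2, the cotransporter that loads chloride into acinar cells, was at 298 and 309 FPKM at 6 h and 399 and 540.0 FPKM at 24 h (log2 difference 0.61, SE 0.304, adjusted p 0.314). They differed in opposite directions without overlap. Ano1, the calcium-gated chloride channel, was at 103 and 85.2 FPKM at 6 h and 97.7 and 108 FPKM at 24 h. The muscarinic receptor gene Chrm3 was at 10.1 and 16.6 FPKM at 6 h and 7.59 and 12.2 FPKM at 24 h. Both overlapped between the times. Atp1b1, a subunit of the sodium pump, was at 379.7 and 362 FPKM at 6 h and 682 and 704 FPKM at 24 h and was named after its values were seen.

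In ducts, all 3 subunit genes of the epithelial sodium channel, which takes sodium back from saliva, were higher at 24 h. Scnn1a was at 12.6 and 10.8 FPKM at 6 h and 56.0 and 35.6 FPKM at 24 h (log2 difference 1.85, SE 0.402, adjusted p 0.121). Scnn1b was at 18.2 and 12.9 FPKM at 6 h and 88.4 and 33.7 FPKM at 24 h (log2 difference 1.77). Scnn1g was at 3.37 and 3.72 FPKM at 6 h and 21.3 and 6.76 FPKM at 24 h (log2 difference 1.54). The first 24 h library was the higher of the 2 for each, and for Scnn1a both were above the unirradiated maximum of 27.8 FPKM. Among 15 kept genes, 3 were lower and 7 higher with no overlap between the times, and the median difference was 0.11. None was called by limma, with 0 lower and 3 higher at an unadjusted p under 0.05. The 3 at that level were these subunits. The median was -0.04 under median-of-ratios scaling. Without the second 24 h library the median was -0.01 and without the first 24 h library 0.29, the lowest and highest of the 4 omissions. The keratin gene Krt7 was at 61.9 and 49.9 FPKM at 6 h and 112 and 68.4 FPKM at 24 h. Krt5, of basal cells, overlapped at 40.5 and 14.9 FPKM at 6 h and 14.5 and 16.2 FPKM at 24 h. The ionocyte factor gene Ascl3 was at 17.9 and 26.3 FPKM at 6 h and 30.0 and 46.2 FPKM at 24 h. Scnn1a and Scnn1g were named after their values were seen.

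Granular convoluted tubule genes differed more between replicate numbers than between times. Of 21 kept genes, 2 were lower and 2 higher without overlap, and the median difference was 0.00. The limma calls numbered 0, and an unadjusted p under 0.05 was reached by 0 lower and 2 higher genes. The median was -0.15 under median-of-ratios scaling. The median was -2.12 without the first 24 h library and 1.99 without the second 24 h library, the extremes of leaving out 1 irradiated library. The growth factor gene Egf was at 1734 and 64.3 FPKM at 6 h and 811 and 66.1 FPKM at 24 h. The libraries with Y-linked transcripts were the high ones for Egf at both times. The kallikreins of this list are near-identical copies whose reads can be shared. Myoepithelial and smooth muscle genes were mostly higher. The 12 kept genes had a median difference of 0.35, with 1 lower and 7 higher without overlap. An unadjusted p under 0.05 was found for 0 lower and 2 higher genes, with 0 called by limma. Leaving out 1 irradiated library moved the median at most to 0.23, without the first 6 h library, and 0.50, without the second 6 h library. The actin gene Acta2 was at 119 and 130.1 FPKM at 6 h and 162 and 150.0 FPKM at 24 h. Cnn1, a calponin, was at 37.7 and 47.3 FPKM at 6 h and 104 and 64.8 FPKM at 24 h.

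A list of genes for products of the neighbouring parotid and sublingual glands was lower at 24 h. It shares Amy1, Bpifa2, Muc19 and Dcpp1 with the acinar list, so the lists are not separate observations. Without overlap, 6 of 8 kept genes were lower and 0 higher, and the median difference was -2.24. With limma, 0 were called and 3 lower and 0 higher genes had an unadjusted p under 0.05. With 1 irradiated library left out, the median lay between -3.72 (without the first 24 h library) and -0.76 (without the second 24 h library). The members at an unadjusted p under 0.05 were Prpmp5, Prb1 and Prh1, proline-rich protein genes on chromosome 6 that, like Prp2, are related copies whose reads can be shared. Prpmp5 was at 88.5 and 135 FPKM at 6 h and 0.332 and 0.151 FPKM at 24 h (log2 difference -6.48, SE 1.75, adjusted p 0.141). Prb1 was at 95.5 and 206 FPKM at 6 h and Prh1 at 200.5 and 277 FPKM, and at 24 h Prh1 was listed at 0 in both libraries and Prb1 in the second. Prp2 was at 22.3 and 32.2 FPKM at 6 h and was listed at 0 in the first 24 h library. All 4 were above every unirradiated library at 6 h. The amylase gene Amy1 was at 6939 and 9935 FPKM at 6 h and 4585 and 343 FPKM at 24 h, against 12.8 to 19203 FPKM in unirradiated libraries. With the Amy1 level as a term in the fit, the median of this list was -1.64, that of the acinar list -0.90 and that of the B cell list 0.27, the last with its sign changed, and 9530002B09Rik had an adjusted p of 0.0854. Prb1 and Prh1 were named after their values were seen.

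Lymphocyte and plasma cell transcripts were high in the second 6 h library. The T cell list summed to 11.6 and 67.7 FPKM at 6 h and 6.55 and 11.4 FPKM at 24 h. Over 17 kept genes the median difference was -0.85, and 7 were lower and 1 higher without overlap. Calls by limma were 0, against 1 lower and 0 higher genes at an unadjusted p under 0.05. Without the first 6 h library the median was -1.68 and without the second 6 h library -0.03, the lowest and highest of the 4 omissions. The helper T cell receptor gene Cd4 was at 0.0858 and 8.25 FPKM at 6 h and 0.0406 and 0.123 FPKM at 24 h. B cell genes summed to 301 and 744 FPKM at 6 h and 101 and 165 FPKM at 24 h. Among 13 kept genes, 4 were lower and 0 higher with no overlap between the times, and the median difference was -0.58. Limma called 0, while 1 was lower and 0 higher at an unadjusted p under 0.05. The median was -1.17 without the first 6 h library and 0.00 without the second 6 h library, the extremes of leaving out 1 irradiated library. The B cell gene Ms4a1 was listed at 0 in the first 6 h library and in both at 24 h. Plasma cell genes summed to 607 and 5743 FPKM at 6 h and 341 and 529 FPKM at 24 h. Of 11 kept genes, 5 were lower and 0 higher without overlap, and the median difference was -1.55. Genes at an unadjusted p under 0.05 numbered 2 lower and 0 higher, and limma called 0. Leaving out 1 irradiated library moved the median at most to -2.98, without the first 6 h library, and -0.12, without the second 6 h library. Igkc, the kappa light chain constant region, was at 156 and 3891 FPKM at 6 h and 124 and 172 FPKM at 24 h. The second 6 h library was the highest of the 4 for Cd4 and Igkc, which overlapped between the times.

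Most red cell transcripts were lower at 24 h. The 7 kept genes had a median difference of -2.21, with 6 lower and 0 higher without overlap. There were 0 calls by limma, and 5 lower and 0 higher genes at an unadjusted p under 0.05. With 1 irradiated library left out, the median lay between -3.01 (without the first 6 h library) and -1.20 (without the second 6 h library). The haemoglobin gene Hba-a1 was at 26.1 and 141 FPKM at 6 h and 8.36 and 7.39 FPKM at 24 h (log2 difference -2.81, SE 0.637, adjusted p 0.126). Macrophage and dendritic cell genes had a smaller median difference. Without overlap, 6 of 17 kept genes were lower and 1 higher, and the median difference was -0.20. None was called by limma, with 2 lower and 0 higher at an unadjusted p under 0.05. Without the first 6 h library the median was -0.36 and without the second 6 h library -0.02, the lowest and highest of the 4 omissions. The complement gene C1qa overlapped at 51.8 and 73.2 FPKM at 6 h and 49.3 and 69.7 FPKM at 24 h. Csf1r, the receptor for a macrophage growth factor, was at 23.2 and 39.3 FPKM at 6 h and 13.3 and 12.3 FPKM at 24 h (log2 difference -1.18). Neutrophil genes were low and mostly lower at 24 h. Over 10 kept genes the median difference was -0.52, and 6 were lower and 0 higher without overlap. The limma calls numbered 0, and an unadjusted p under 0.05 was reached by 0 lower and 0 higher genes. The median was -0.84 without the first 6 h library and -0.16 without the second 6 h library, the extremes of leaving out 1 irradiated library. The calprotectin gene S100a8 was at 16.5 and 26.2 FPKM at 6 h and 6.16 and 3.02 FPKM at 24 h.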

How the data were processed

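RNA was sequenced from submandibular glands in 10 libraries, 2 in each of 5 groups. The deposited values are FPKM per gene made by the authors. The submitters' processing notes list HISAT2, Bowtie2, SAMtools, Cufflinks and mm10 with no roles, and no version or annotation is given in the sources used here. Each CUT&Tag file is a list of summit positions of 1 bp; its deposited score, of a scale not given in the sources used here, was not used.

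Each expression file held 55398 entries. After 217 entries with a repeated symbol (107 symbols) were dropped, 55181 genes were joined by symbol. The 15161 genes reaching 1 FPKM in 2 or more of the 10 libraries were kept. On log2(FPKM + 1) values, limma 3.58.1 (R 4.3.3) fitted 1 mean per group over all 10 libraries, with a prior variance that follows abundance. The contrast 24 h minus 6 h was tested two-sided, with Benjamini-Hochberg adjustment over all kept genes, and called at an adjusted p under 0.05. Python 3.11.15, numpy 2.4.6, pandas 2.3.3 and matplotlib 3.10.9 made the tables and figures, and the fit was tested on simulated data. FPKM carry no counts, so no counting interval is given, and 2 libraries a group limit the precision.

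The comparison, its 39 gene lists (564 genes, 562 matched to a symbol and 524 kept) and the tests were chosen with earlier results of these data known. The antigen presentation list and the families of ribosomal protein and respiratory chain genes were added later. Fewer than 10 genes were called in each direction, so the named genes are the 10 with the smallest p in each direction that met the minimum mean of 5 FPKM, did not overlap and had no clone or predicted name, together with fixed examples of each list. Other genes are marked in the text as chosen later, and some list members are not reported here. Of 23 genes looked up for position, 22 were found in RefSeq. Promoter windows are the 250 bases before each RefSeq start on GRCm38.p6, the assembly behind mm10. Alternatives were 2 scalings, another pseudocount, other filters and sets of libraries, terms for Y-linked transcripts, Amy1 or replicate number, another prior and leaving out each library in turn.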

Additional observations from a re-analysis of the deposited data

How the results depend on the processing

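Of the 3 called genes, 1 higher and 2 lower, neither count was stable. The count of genes higher at 24 h was 0 under median-of-ratios scaling, a pseudocount of 0.1, a mean of at least 5 FPKM, a fit to the 4 irradiated libraries alone, a term for Y-linked transcripts and a term for Amy1, 2 with the 6 libraries that share a gene order, 3 with one prior for all genes and 49 with no filter. The count lower was 0 with a mean of at least 5 FPKM, 5 under quantile normalization and with the 4 irradiated libraries alone, and 18 with no filter. Leaving out 1 library at a time gave 0 to 2 higher and 2 to 4 lower, with 0 higher without either ZT15 library, either 6 h library or the first 24 h library, 2 higher without the second 24 h library and 4 lower without either ZT3 library. The cause was not tested, except that a higher minimum or no filter changes the number of genes tested. With the replicate number as a block in the 4 irradiated libraries, 0 genes were higher and 0 lower; the labels do not say that the numbers pair the samples, and the deviations of same-numbered libraries correlated at 0.169 over 2 pairs, too few to treat them as pairs. 9530002B09Rik had an adjusted p of 0.182 in that fit and Gm20305 and Gm27913 one of 0.108. Agt, Mvp and Phgdh were called under quantile normalization, with adjusted p-values of 0.0417, 0.0364 and 0.0364. At an unadjusted p under 0.05 the count ran from 1354 without the first 24 h library to 4007 with the 6 libraries that share a gene order, and was 1786 without the first 6 h library and 1667 without the second. The median changed sign under some setting in 10 of 41 lists, the sex-linked list not counted. FPKM keep no depth, so limits of detection are unknown.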

Other observations

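Immediate early genes were lower or overlapped at 24 h. Among 17 kept genes, 6 were lower and 0 higher with no overlap between the times, and the median difference was -0.22. An unadjusted p under 0.05 was found for 0 lower and 0 higher genes, with 0 called by limma. Fos, a subunit of AP-1, overlapped at 3.27 and 5.04 FPKM at 6 h and 2.92 and 6.06 FPKM at 24 h. Myc was at 4.88 and 6.39 FPKM at 6 h and 3.45 and 4.54 FPKM at 24 h, below every unirradiated library at both times. Genes of the unfolded protein response had no common direction. Of 16 kept genes, 7 were lower and 4 higher without overlap, and the median difference was -0.07. With limma, 0 were called and 0 lower and 0 higher genes had an unadjusted p under 0.05. Leaving out 1 irradiated library moved the median at most to -0.16, without the second 24 h library, and -0.01, without the first 24 h library. Hspa5, the main chaperone of the endoplasmic reticulum, was at 282 and 236 FPKM at 6 h and 202 and 206 FPKM at 24 h. Heat shock genes divided too. The 11 kept genes had a median difference of -0.18, with 3 lower and 4 higher without overlap. Calls by limma were 0, against 0 lower and 1 higher genes at an unadjusted p under 0.05. With 1 irradiated library left out, the median lay between -0.23 (without the second 6 h library) and 0.02 (without the second 24 h library). The chaperone gene Hsp90aa1 was at 47.7 and 41.7 FPKM at 6 h and 87.7 and 53.1 FPKM at 24 h.

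Antioxidant and detoxification genes had a median near that of all kept genes, and it was -0.02 under median-of-ratios scaling. Without overlap, 3 of 18 kept genes were lower and 5 higher, and the median difference was 0.07. Limma called 0, while 1 was lower and 2 higher at an unadjusted p under 0.05. Without the first 24 h library the median was -0.06 and without the second 24 h library 0.22, the lowest and highest of the 4 omissions. Hmox1, the haem-degrading oxygenase, was at 13.2 and 21.7 FPKM at 6 h and 6.55 and 6.47 FPKM at 24 h. Replication-dependent histone genes encode transcripts without poly(A) tails. Over 8 kept genes the median difference was -0.45, and 5 were lower and 0 higher without overlap. Genes at an unadjusted p under 0.05 numbered 1 lower and 0 higher, and limma called 0. Skeletal muscle genes summed to 6.95 and 5.53 FPKM at 6 h and 14.1 and 21.9 FPKM at 24 h. Among 8 kept genes, 0 were lower and 7 higher with no overlap between the times, and the median difference was 1.12. There were 0 calls by limma, and 0 lower and 1 higher genes at an unadjusted p under 0.05. The fast myosin gene Myh4 was listed at 0 at 6 h and was at 0.840 and 1.91 FPKM at 24 h. Adipocyte genes differed more between replicates than between times. Of 9 kept genes, 0 were lower and 1 higher without overlap, and the median difference was -0.04. None was called by limma, with 0 lower and 0 higher at an unadjusted p under 0.05. The median was -1.67 without the second 24 h library and 1.39 without the first 24 h library, the extremes of leaving out 1 irradiated library. The adipokine gene Adipoq was at 3.39 and 9.32 FPKM at 6 h and 1.11 and 27.6 FPKM at 24 h. Among the 5 sex-linked genes 0 were called and 0 did not overlap, and Xist was at 0.0230 and 32.0 FPKM at 6 h and 0.0688 and 58.3 FPKM at 24 h.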
